A study of Mus musculus with 16 samples.

Results

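N1-acetylspermidine (N1-AcSpd) was given to hair follicle stem cells in culture, and the transcriptome of the CD34+ cells was compared with and without it. The groups compared held 8 of the 16 libraries of the series: 4 from N1-AcSpd-treated and 4 from untreated α6+/CD34+ cells, each pair from the same mouse. The sample titles name the untreated group WT CD34+ and the treated group N1AcSpd CD34+. Both groups came from the same mice, so that WT here marks the untreated cultures. All cells came from the epidermis of C57BL/6J mice and were grown for 2 weeks as organoids in Matrigel in the 3D–3C medium, which holds EGF, FGF2, VEGF and the ROCK inhibitor Y27632 and allows CD34+ stem cells and CD34- progenitors to coexist. For each mouse there was a culture given N1-AcSpd for the last 72 h and a culture left untreated, after which α6 integrin-positive cells were sorted by FACS into CD34+ and CD34- fractions. Both groups thus shared the growth factors and the inhibitor, and the cells are sorted cultures, not cells taken from skin. The question was which transcripts the acetylated polyamine changed in the stem cell fraction, and the 8 CD34- libraries served as the comparison.

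Polyamines (putrescine, spermidine and spermine) are small cationic molecules that bind RNA and other anions and that growing cells make in quantity. Ornithine decarboxylase starts their synthesis. Spermidine/spermine N1-acetyltransferase (encoded by Sat1) adds an acetyl group to spermidine and spermine, and the acetylated forms are exported or oxidised back by polyamine oxidase. Antizymes and antizyme inhibitors set the stability of ornithine decarboxylase. In the hair follicle, polyamines are known as promoters of growth, and CD34 together with α6 integrin marks the bulge stem cells of the mouse.

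The count of molecules (unique molecular identifiers, UMIs) per library ran from 16928210 to 18329702 in untreated and from 15480075 to 26233887 in N1-AcSpd-treated CD34+ cells, the deepest being the treated library of mouse 1. Levels are given as CPM, which scales each gene's UMI count to the total of its library after a TMM correction for composition, in the order of mice 1 to 4. Fold changes and p-values come from edgeR's quasi-likelihood test with Benjamini-Hochberg adjustment over all genes tested, unless another model is named. That fit used all 16 libraries, CD34- included, to estimate the spread, with 1 mean per group and no pairing by mouse. The spread between replicates is that between the 4 mice. The sort was as labelled. Cd34 measured 49.95 ± 5.89 CPM (SD, n = 4) in untreated and 53.3 ± 7.77 CPM (SD, n = 4) in treated CD34+ cells, against 3.19 and 3.26 CPM in the CD34- fractions. The basal keratins Krt5 and Krt14 and the α6 integrin gene Itga6 had log2 fold changes of 0.02, 0.00 and -0.05 with N1-AcSpd, with adjusted p of 0.835 or more. The 8 fibroblast markers summed to between 0.528 and 2.63 CPM in every CD34+ library, with Pdgfrb at 0 UMIs, and the 6 immune markers found to between 1.41 and 4.22 CPM, most of it Cd52. Ptprc, the pan-leukocyte marker, was at 1.92 and 1.75 CPM in the untreated libraries of mice 2 and 4 and at 0.0587 CPM or less in the other 6. The 6 melanocyte markers summed to 32.1 to 36.1 CPM in untreated and 29.4 to 32.9 CPM in treated libraries. Among them Tyrp1 had no UMI and Pmel was at 9.87 and 9.89 CPM. The endothelial marker Pecam1 was counted at 1816 CPM in untreated cells and 1755 CPM in treated cells, while the defining endothelial genes Kdr and Tek averaged at most 0.149 CPM. The part of these other cell types in the results was not tested.

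Of 19049 genes tested, 62 passed an adjusted p of 0.05 (edgeR), which is 0.325% of the genes. Of these, 36 were higher with N1-AcSpd (0.189%) and 26 were lower (0.136%). The changes were small, with a median absolute log2 fold change of 0.34 and a range from 0.16 to 1.53, and 19 genes exceeded 0.5, 11 of them higher and 8 lower. All 62 moved the same way in 4 of 4 mice, and in all 62 the values of the treated and untreated libraries did not overlap. Over all genes tested, 6.81% had groups that did not overlap and 13.2% had an unadjusted p under 0.05, and since the calls were made on the same contrast nothing further was read from these counts. Because some called genes overlap on the genome and share nearly all their counts, such as Timp3 and Syn3, the 62 genes correspond to at most 58 separate count profiles.

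The number of genes called depended on how the libraries were modelled. With the mouse as a block 152 genes were called (0.798%), 92 higher and 60 lower, and 59 of the 62 were among them, the exceptions being Kctd1, Sephs2 and Gm7204. DESeq2 called 431 of the 6806 genes it gave an adjusted p (6.33%), 99 of them lower, and these included all 52 of the 62 that had an adjusted p there. With the size factors of DESeq2 in edgeR 75 genes were called, 53 of them higher. A fit of the 8 CD34+ libraries alone called only Prl2c5, Timp3 and Syn3, although all 62 genes kept an unadjusted p under 0.05 in it, and with the mouse as a block that smaller fit called 0 genes while 2473 had an unadjusted p under 0.05. Among single libraries, the count fell to 37 without the treated library of mouse 1, to 22 without that of mouse 3, and to 20, 30 and 30 without the untreated libraries of mice 1, 2 and 4, and it was 39 when either mouse 2 or mouse 3 lacked its untreated CD34- library. Without all 4 libraries of a mouse it was 5, 8, 12 and 3 for mice 1 to 4. Prl2c5 was called in all 20 of these runs, and 15 genes were called in all 16 runs that left out 1 library, among them Gpx2, Gstm1, G6pdx, Pgd, Esd, Dtymk and Myh9. The plot of calls by setting gives both directions for each model.

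**Figure D1:**
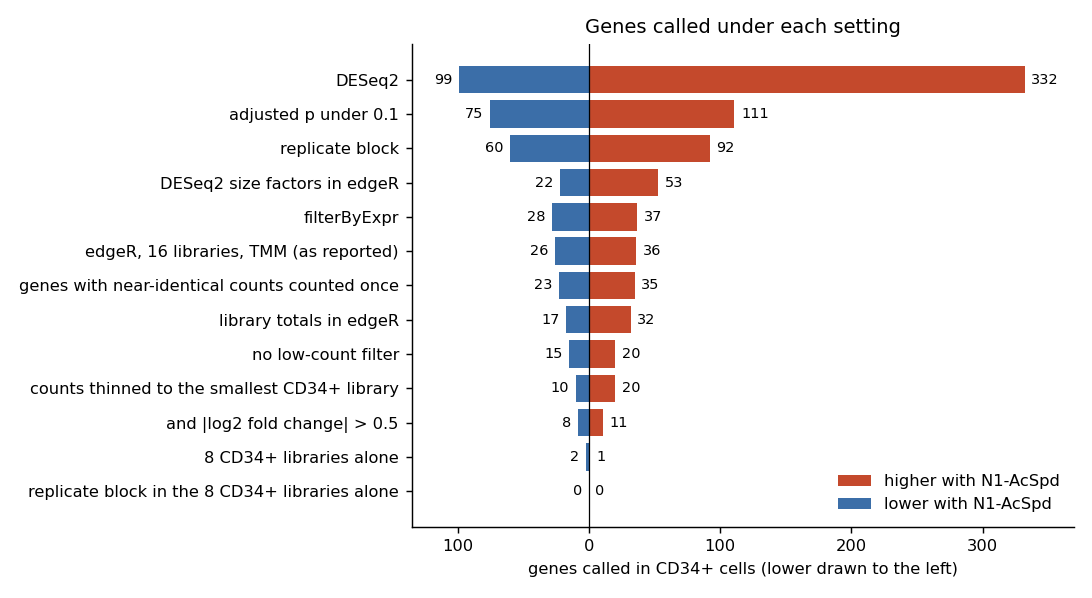
Number of genes called in CD34+ cells under each setting, with genes higher with N1-AcSpd drawn to the right in red and genes lower drawn to the left in blue. The fit as reported called 36 and 26, with the size factors of DESeq2 53 and 22, and the fit of 8 libraries alone 1 and 2.

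Among secreted and cell surface proteins, the smallest adjusted p belonged to Prl2c5, which encodes a proliferin, a placental hormone of the prolactin family. Its level was 43.4, 42.9, 46.0 and 45.4 CPM in untreated cells and 85.3, 79.1, 82.9 and 72.5 CPM in treated cells. Every treated library thus stood well above every untreated one. The means were 44.4 ± 1.49 and 79.9 ± 5.57 CPM (SD, n = 4), a 1.80-fold rise (log2 fold change 0.85 ± 0.082 SE, adjusted p = 0.00163). The gene lies at chr13:13182715-13191923 (mm10, plus strand) in a cluster of near copies, and the last 500 bases of its transcript were 93.2% identical to those of Prl2c2 and 91.4% identical to those of Prl2c3. Prl2c2 and Prl2c3 did not pass the test (log2 fold changes -0.04 and -0.07). Prl2c1 was at 0 in the untreated library of mouse 3 and the treated library of mouse 4, and between 13.6 and 52.6 CPM in the other 6. Summed over the 4 near copies the level was 462 ± 57.6 CPM in untreated and 499 ± 46.9 CPM in treated cells (SD, n = 4), so that the rise of Prl2c5 is uncertain to the extent that the counting divided reads among the copies. Of the 6 tested genes of the proliferin list only Prl2c5 was called.

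Igfbp3, which binds insulin-like growth factors and limits their access to the receptor, was at 3.98, 3.89, 5.04 and 4.11 CPM in untreated and 7.61, 8.08, 8.402 and 6.75 CPM in treated cells. All 4 treated values lay above the highest untreated value. The rise was 1.81-fold (log2 fold change 0.86 ± 0.15 SE, adjusted p = 0.0353), with the call lost in 11 of the 20 runs that left out a library or a mouse. It was the 1 gene called of 15 tested in the insulin-like growth factor axis, and the median of that list was 0.06 against -0.01 over all genes. The receptor gene Igf1r had a log2 fold change of -0.01 (adjusted p = 0.993). Igf1 was at 0 in all 4 untreated libraries and at 0, 1.48, 1.47 and 0.880 CPM in the treated ones, and it did not pass the test (adjusted p = 0.216).

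Il1r2 had the highest fold change of the called genes. It encodes the decoy receptor that binds interleukin-1 without signalling. It rose from 0.569, 0.987, 0.596 and 0.719 CPM to 1.45, 2.50, 2.09 and 2.29 CPM, 2.88-fold (log2 fold change 1.53, adjusted p = 0.0482). These levels rest on a mean of 26.1 UMIs per library, and the call was lost in 16 of the 20 runs that left out a library or a mouse. Mfsd2a, a transporter of lysophosphatidylcholine, rose 2.52-fold from a mean of 0.515 to 1.31 CPM (adjusted p = 0.0467) at 17.5 UMIs per library, with the call lost in 18 of the 20 runs. Both fell below the mean count of 50 set for naming and were added after their values were seen.

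Stfa2, a stefin that inhibits cysteine proteases, rose 1.76-fold from 1.08, 1.04, 1.19 and 1.08 CPM to 2.26, 1.93, 1.66 and 1.88 CPM (adjusted p = 0.0468), at a mean of 29.4 UMIs per library and with the call lost in 17 of the 20 runs. It was the only called member among 9 tested stefins and cystatins, whose median log2 fold change was 0.24. The neighbouring Stfa1 and Stfa3 had log2 fold changes of 0.28 and 0.05 and did not pass the test. Ptges, the inducible prostaglandin E synthase, rose from 7.79, 8.004, 9.21 and 6.83 CPM to 11.6, 11.7, 12.8 and 11.5 CPM (log2 fold change 0.58, adjusted p = 0.0176).

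Tm4sf1 encodes a small membrane protein of the L6 tetraspan family. It was at 8.59, 7.84, 7.80 and 6.78 CPM in untreated cells and at 5.64, 4.04, 5.40 and 4.87 CPM in treated cells. The lowest untreated library was above the highest treated one. The fall was 1.55-fold (log2 fold change -0.63 ± 0.10 SE, adjusted p = 0.0176), with the call lost in 6 of the 20 runs. It was the only call among 12 tested L6 tetraspans and tetraspanins. Cd9, the best known tetraspanin, had a log2 fold change of 0.18 with an adjusted p of 0.0908, which became 0.0470 with the mouse as a block.

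Timp3, an inhibitor of matrix metalloproteinases that stays bound to the matrix, fell from 40.0, 37.0, 34.4 and 41.1 CPM to 21.0, 22.8, 22.5 and 24.3 CPM. The 4 treated values fell within a narrow range well below the untreated ones. The fall was 1.68-fold (log2 fold change -0.75 ± 0.13 SE, adjusted p = 0.0274). Timp3 lies inside an intron of the synapsin gene Syn3, and their counts were nearly equal in every library, so that the same change is listed for Syn3 (adjusted p = 0.0240) and both stand for 1 count profile. Timp3 was the only call among 24 tested matrix proteases and inhibitors. The related Timp2 went from a mean of 29.5 to 22.8 CPM without passing the test (adjusted p = 0.160).

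Porcn, the acyltransferase that adds palmitoleate to Wnt proteins before their secretion, fell from 205, 176, 189 and 203 CPM to 127, 135, 122 and 148 CPM, 1.45-fold (log2 fold change -0.54 ± 0.084 SE, adjusted p = 0.0166). It is X-linked, at chrX:8193848-8206525. Pip, which encodes a secreted prolactin-inducible protein, fell from 135, 122, 100 and 99.9 CPM to 70.4, 78.0, 75.6 and 76.6 CPM, 1.52-fold (adjusted p = 0.0151). In Pip the untreated libraries varied among themselves and the treated libraries did not.

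**Figure D2:**
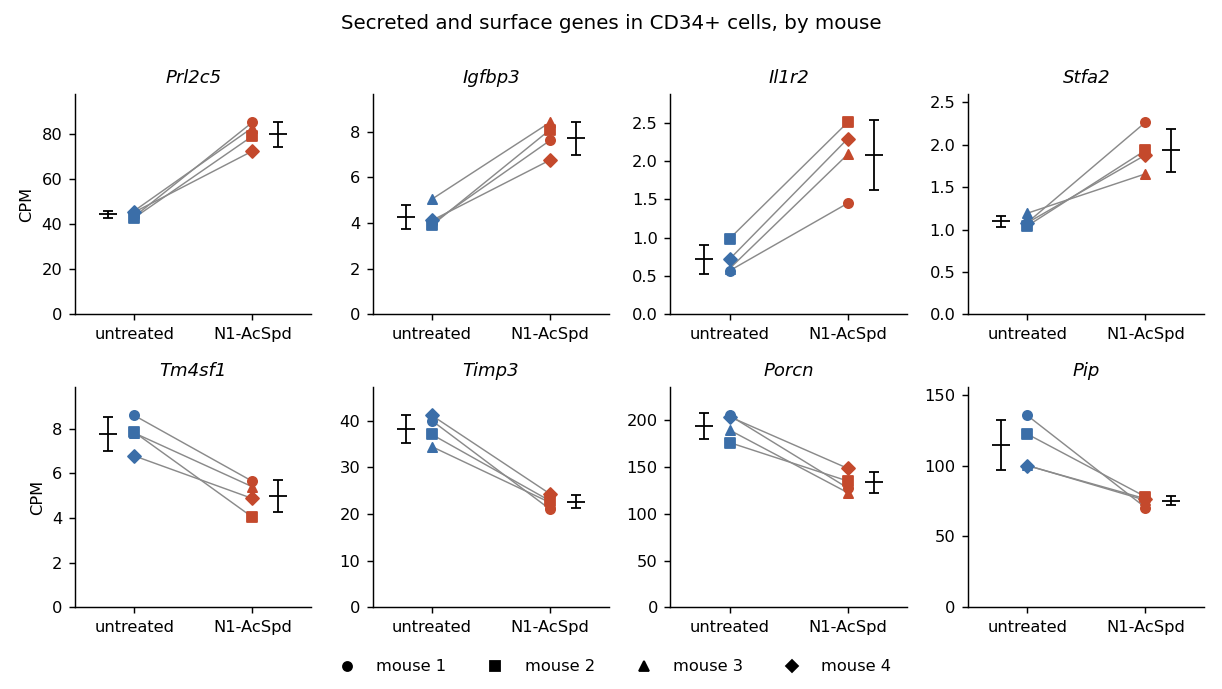
CPM of 8 genes for secreted or surface proteins in CD34+ cells (y axis), untreated in blue and N1-AcSpd-treated in red, with a line joining the 2 libraries of each mouse and the mean ± SD of 4 mice beside them. In each panel all 4 lines run the same way and the groups do not overlap, as for Prl2c5 at 44.4 against 79.9 CPM.

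The called genes with the most members in 1 list were those for enzymes of redox defence. All lists, the transferase list below included, were fixed with earlier results of these data known. Their counts are thus not an independent test. NRF2 is a transcription factor that induces enzymes for glutathione, NADPH and quinone metabolism when electrophiles or oxidants modify its repressor KEAP1. Of 29 tested NRF2 targets 7 rose and 0 fell, against 0.189% of all genes for a rise. Of the 29, 19 had an unadjusted p under 0.05 in the direction of a rise and 1 in the other, against 6.78% and 6.37% of all genes tested, and the median log2 fold change was 0.22 against -0.01 over all genes tested, with a median above 0 in 4 of 4 mice. With the mouse as a block 8 rose and 0 fell, the added gene being Fth1. The list was not particular to CD34+ cells. In the CD34- progenitors 7 of the 29 were called in either direction, against 0.614% of all genes, with a median of 0.175.

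Of the 7 NRF2 targets that rose, Gsr, Nqo1 and Cbr3 had the largest fold changes. Gsr, glutathione reductase, was at 5.35, 5.87, 5.96 and 5.19 CPM in untreated and 9.17, 8.88, 11.2 and 8.10 CPM in treated cells, 1.67-fold higher (adjusted p = 0.0331). Nqo1, the quinone reductase that serves as the standard reporter of NRF2 activity, went from 11.4, 10.9, 13.4 and 10.5 CPM to 18.3, 15.8, 22.1 and 16.0 CPM, 1.56-fold higher (adjusted p = 0.0186). Cbr3, a carbonyl reductase, went from 18.7, 22.3, 17.7 and 19.6 CPM to 31.0, 29.8, 29.1 and 29 CPM, 1.52-fold higher (adjusted p = 0.0144). For each of these the treated libraries lay wholly above the untreated ones, and mouse 3 gave the highest treated value for Gsr and Nqo1.

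Among the genes of the list for enzymes that form NADPH, G6pdx and Pgd rose and Me1, malic enzyme, did not pass the test (log2 fold change 0.36, adjusted p = 0.361). G6pdx, glucose-6-phosphate dehydrogenase and the first step of the pentose phosphate pathway, rose from 17.2, 17.5, 19.4 and 16.2 CPM to 23.8, 24.9, 25.6 and 25.1 CPM, 1.41-fold (log2 fold change 0.50 ± 0.057 SE, adjusted p = 0.00501). Its locus overlaps Ikbkg, a regulator of NF-κB signalling, which rose 1.25-fold (adjusted p = 0.0116), and counts of the 2 may be shared. Pgd, the next NADPH-forming enzyme of the pathway, rose from a mean of 28.5 ± 0.859 to 34.6 ± 1.45 CPM (SD, n = 4), a log2 fold change of 0.28 (adjusted p = 0.00867). The later pathway enzymes Taldo1 and Tkt had log2 fold changes of 0.12 and 0.14 and did not pass the test.

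The other 2 members of the list that rose were Gpx2 and Prdx1. Gpx2, an epithelial glutathione peroxidase, rose from 125, 99.5, 104 and 98.8 CPM to 173, 149, 165 and 155 CPM, or 0.59 ± 0.078 SE on the log2 scale (adjusted p = 0.00727). Prdx1, a highly expressed peroxiredoxin, rose from 1105, 1140, 1113 and 1141 CPM to 1221, 1236, 1364 and 1288 CPM, 1.14-fold (adjusted p = 0.0357). Fth1, the ferritin heavy chain, went from 698 ± 32.9 to 880 ± 69.7 CPM (SD, n = 4), with an adjusted p of 0.0606 that became 0.00225 with the mouse as a block. Txn1, thioredoxin, went from 2929 to 3546 CPM with an adjusted p of 0.127. The textbook targets Hmox1, Txnrd1 and Slc7a11 had log2 fold changes of 0.48, 0.16 and 0.21 and did not pass the test, with adjusted p of 0.436, 0.649 and 0.660. Gclm was counted at 71.4 CPM in the treated library of mouse 4 and between 621 and 682 CPM in the other 7, and its fold change was not read. Nfe2l2, which encodes NRF2 itself, had a log2 fold change of 0.12 (adjusted p = 0.345), and Keap1 one of 0.03 (adjusted p = 0.972). Cyp2b10 was the 1 member of the list with a lower level at an unadjusted p under 0.05 (log2 fold change -0.18, adjusted p = 0.362).

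Of 21 tested glutathione S-transferases, enzymes that couple glutathione to electrophiles, 3 rose and 0 fell, against 0.189% of all genes for a rise. Gstm1 rose from 17.2, 16.5, 15.01 and 17.1 CPM to 23.4, 21.4, 24.5 and 24.2 CPM, 1.42-fold (log2 fold change 0.51 ± 0.072 SE, adjusted p = 0.00867). Gstp1 rose from 142 ± 7.24 to 167 ± 5.25 CPM (SD, n = 4), 1.18-fold (adjusted p = 0.0235), and Gstp2 likewise by 1.18-fold (adjusted p = 0.0274). Gstp1 and Gstp2 are neighbours whose last 500 transcript bases are 98.8% identical, so that they could not be told apart by 3′ reads and may be 1 change. Gsta4, which conjugates the lipid peroxidation product 4-hydroxynonenal, went from 15.4, 20.8, 21.5 and 19.8 CPM to 33.4, 35.8, 38.3 and 27.1 CPM, with an adjusted p of 0.0600 and of 0.0351 with the mouse as a block. Its 3 low relatives Gsta1, Gsta2 and Gsta3 were higher in 4 of 4 mice without passing the test, at mean levels of 1.75, 0.300 and 0.686 CPM in treated cells. The median log2 fold change over the 21 transferases was 0.16.

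**Figure D3:**
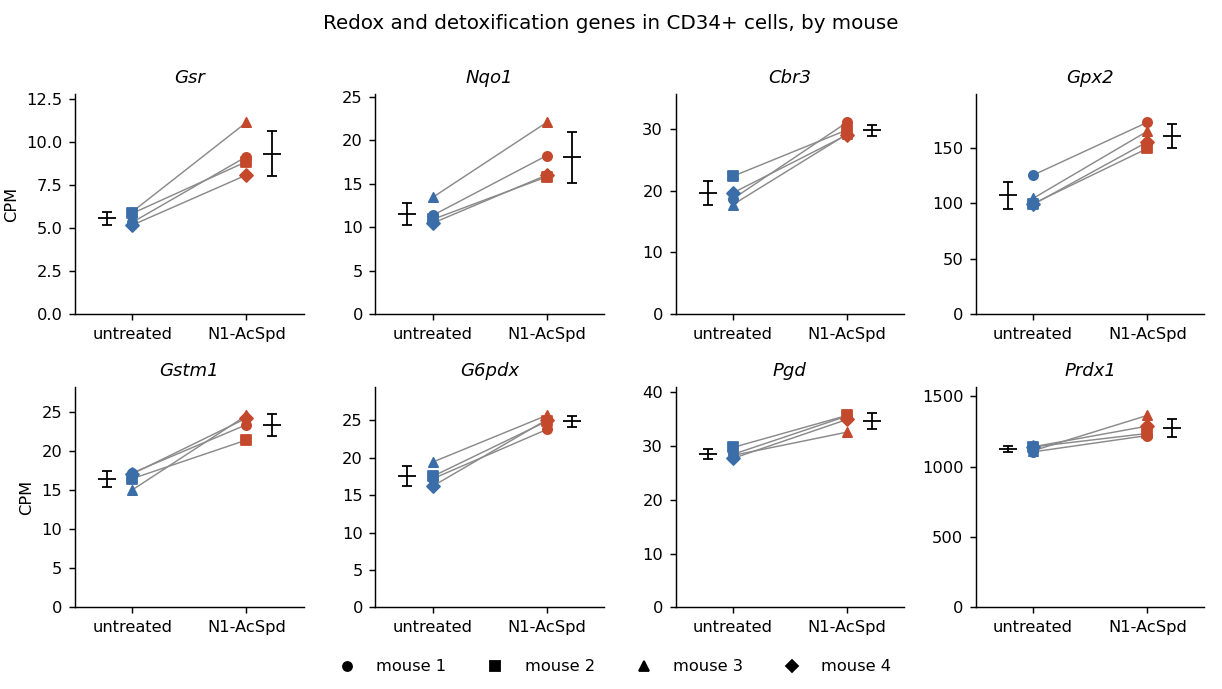
CPM of 8 redox and detoxification genes in CD34+ cells (y axis), untreated in blue and N1-AcSpd-treated in red, joined by mouse, with the mean ± SD of 4 mice beside them. All 8 rose in 4 of 4 mice, from 1.67-fold in Gsr to 1.14-fold in Prdx1.

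The promoters of the 10 called redox genes (Nqo1, Gsr, Gpx2, Cbr3, G6pdx, Pgd, Prdx1, Gstm1, Gstp1 and Gstp2) were searched for the core of the antioxidant response element, the site that NRF2 is known to bind, spelled TGACNNNGC, on both strands of the RefSeq window from 250 bases before to 50 after the start (GRCm38.p6). For 9 of the 10 a window was found, and 3 of the 9 held the core: G6pdx, Pgd and Prdx1. Among all 27025 genes with a window 14% held it. The related AP-1 element, TGACTCA or TGAGTCA, was found in Gstp1, Gstp2 and Prdx1, against 5.95% of all genes. In Prdx1 the AP-1 letters overlap the antioxidant core. Below are the 150 bases before the start in 4 of these genes, shown because they hold a match upstream of the start, with the antioxidant core in capitals in G6pdx (chrX:74428881-74429030, minus strand) and Prdx1 (chr4:116685449-116685598, plus strand), and the AP-1 element in capitals in Gstp1 (chr19:4037913-4038062, minus strand) and Gstp2 (chr19:4042222-4042371, minus strand). Each is written 5′ to 3′ on the strand of its gene.
G6pdx: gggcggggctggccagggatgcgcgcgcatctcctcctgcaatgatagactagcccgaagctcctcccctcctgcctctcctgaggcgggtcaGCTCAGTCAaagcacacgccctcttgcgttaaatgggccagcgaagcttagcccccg
Prdx1: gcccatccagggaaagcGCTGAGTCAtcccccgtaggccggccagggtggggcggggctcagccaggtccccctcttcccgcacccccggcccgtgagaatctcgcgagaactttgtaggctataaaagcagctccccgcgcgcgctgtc
Gstp1: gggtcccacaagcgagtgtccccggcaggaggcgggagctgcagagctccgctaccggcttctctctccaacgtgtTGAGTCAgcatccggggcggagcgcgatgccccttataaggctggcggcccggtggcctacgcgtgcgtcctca
Gstp2: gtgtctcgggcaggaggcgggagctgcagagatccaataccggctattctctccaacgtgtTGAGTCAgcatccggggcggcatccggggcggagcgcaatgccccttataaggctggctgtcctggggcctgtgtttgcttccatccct
The antioxidant core in both G6pdx and Prdx1 reads on the opposite strand. Aligned end to end, the stretches of Gstp1 and Gstp2 differ by 47 edits over 150 bases (68.7% identity). The AP-1 element begins at base -74 from the start in Gstp1 and at -89 in Gstp2. The edits thus include a shift between the windows and do not measure divergence of the promoters alone. These matches describe letters in the windows, and binding was not measured.

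Other genes that rose lay outside the redox lists. Esd, S-formylglutathione hydrolase, which completes the glutathione-dependent removal of formaldehyde, rose from 187, 203, 183 and 193 CPM to 257, 258, 252 and 242 CPM, 1.32-fold (log2 fold change 0.40 ± 0.048 SE, adjusted p = 0.00674). Dtymk, thymidylate kinase, rose from 60.3, 59.9, 59.8 and 59.1 CPM to 71.4, 70.6, 69.9 and 72.8 CPM, 1.19-fold (adjusted p = 0.00727), with little spread in either group. Car13, a cytosolic carbonic anhydrase, rose 1.19-fold (adjusted p = 0.00727), and Alg8, a glucosyltransferase of N-glycan assembly, 1.27-fold (adjusted p = 0.0205). Pold2, a subunit of DNA polymerase delta, rose 1.17-fold (adjusted p = 0.0468). Sephs2, selenophosphate synthetase, which supplies selenium for selenoproteins such as Gpx2, rose 1.21-fold (adjusted p = 0.0468), a call lost with the mouse as a block (adjusted p = 0.0600). The selenoprotein methionine sulfoxide reductase Msrb1 fell 1.26-fold (adjusted p = 0.0485). Lbhd1 and 1810009A15Rik overlap on chromosome 19 with near-identical counts, so that their log2 fold changes of 0.29 and 0.32 stand for 1 count profile. The adjacent Ints5 rose by 0.29. Pold2, Sephs2 and Msrb1 are outside the naming rule and were added after their values were seen.

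Myh9, the heavy chain of non-muscle myosin IIA, fell from 37.0, 33.5, 37.9 and 37.0 CPM to 25.7, 28.4, 29.01 and 27.5 CPM, 1.32-fold (log2 fold change -0.40 ± 0.051 SE, adjusted p = 0.00727). Flna, the actin cross-linker filamin A, fell 1.19-fold (adjusted p = 0.0465), and the collagen receptor kinase Ddr1 fell 1.20-fold (adjusted p = 0.0485). Flna and Ddr1 were likewise named after their values were seen. Golgb1, the Golgi protein giantin, fell 1.34-fold (adjusted p = 0.0151) together with the antisense transcript 4930565N06Rik that overlaps it. Slc25a4, the mitochondrial ADP/ATP carrier, fell 1.32-fold (adjusted p = 0.0485), and Nxn, the thioredoxin-related nucleoredoxin, fell 1.34-fold (adjusted p = 0.0277). Smaller or less characterised genes that fell were Tcp11l1 (1.34-fold, adjusted p = 0.00727), Depdc7 (1.31-fold, adjusted p = 0.0240), Fam172a (1.42-fold, adjusted p = 0.0468) and Kctd1 (1.33-fold, adjusted p = 0.0485, and 0.0515 with the mouse as a block). Krcc1 and Smyd1, which overlap, had identical counts and fell 1.26-fold. For Fam172a the overlapping antisense model Gm38604 fell as well, and without strand in the table the pair cannot be told apart, nor can Golgb1 and its antisense. The 12 called genes not described elsewhere, among them the splicing and RNA processing genes Snrpa1 and Cpsf6 and the RhoA exchange factor Net1, changed by 0.16 to 0.29 on the log2 scale where they rose and by -0.20 to -0.49 where they fell.

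Of the 13 mitochondrially encoded genes of the respiratory chain, edgeR called 1, which fell. This was mt-Co3, a subunit of cytochrome c oxidase, at 4369, 3851, 4006 and 4238 CPM in untreated and 3107, 3482, 2951 and 3472 CPM in treated cells (1.27-fold, adjusted p = 0.0485). The nuclear pseudogene Gm28437 had nearly the same counts and was called with it. mt-Co1 went from 1951 ± 117 to 1641 ± 103 CPM (SD, n = 4), with an adjusted p of 0.104 that became 0.0199 with the mouse as a block. The other 11 did not pass the test in either fit. DESeq2 called 4 of the 13 lower and 0 higher, against 6.33% of the genes it gave an adjusted p. At an unadjusted p under 0.05 by edgeR, 6 were lower and 0 higher, against 6.37% and 6.78% of all genes tested. The median of the 13 was -0.07, and in CD34- cells it was -0.196 with 2 called in either direction. The summed level of the 13 was 12490 to 13870 CPM in untreated and 11700 to 12270 CPM in treated libraries.

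In the polyamine pathway itself edgeR called 0 of 33 tested members. At an unadjusted p under 0.05, 5 were higher and 5 lower, against 6.78% and 6.37% of all genes tested, with a median of 0.04. The mouse as a block called 1 higher and 1 lower, against 0.798% of all genes in either direction. DESeq2 called 4 higher and 3 lower, against 6.33% of the genes it gave an adjusted p. Sat1, whose enzyme makes N1-AcSpd from spermidine, was at 73.7, 66.5, 75.4 and 59.2 CPM in untreated and 105, 83.3, 103 and 84.7 CPM in treated cells. It was higher in each of 4 mice, by 1.37-fold in the fit, with an adjusted p of 0.144 and of 0.00794 with the mouse as a block. Azin1, an antizyme inhibitor that protects ornithine decarboxylase, was at 7.91, 7.90, 8.62 and 8.78 CPM in untreated and 6.16, 6.71, 7.30 and 5.64 CPM in treated cells, with an adjusted p of 0.0532 and of 0.0259 with the block. Odc1, ornithine decarboxylase, went from 45.1 to 41.8 CPM (adjusted p = 0.692), and Paox, the oxidase for acetylated polyamines, from 11.4 to 12.3 CPM (adjusted p = 0.680). Amd1, which makes the aminopropyl donor for spermidine, went from 72.1 to 59.8 CPM (adjusted p = 0.0932), and its near copy Amd2 gave almost the same values. Eif5a, the translation factor that carries the spermidine-derived residue hypusine, was higher in 4 of 4 mice by 0.14 on the log2 scale (adjusted p = 0.0957).

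With the mouse as a block, 93 genes were called that the fit without it did not call. Those with the largest changes among genes of adequate count were Lrat, Gsta4, Procr, Fscn1 and Elf3, which rose, and Txnip, Ccl27b, Ccl27a, Eppk1 and Inhba, which fell. Lrat, which esterifies retinol for storage, went from 5.91, 8.66, 6.02 and 9.86 CPM to 13.2, 16.2, 13.1 and 14.0 CPM (adjusted p = 0.00699 with the block and 0.106 without). It shares its counts with the overlapping transcript Rbm46os. Txnip, which binds and inhibits thioredoxin, went from 7.85, 11.02, 5.85 and 13.1 CPM to 2.49, 6.71, 3.31 and 5.58 CPM (adjusted p = 0.00888 with the block and 0.221 without). In Txnip the mice differed by more than the treatment in some pairs, and the treated library of mouse 2 lay above the untreated library of mouse 3. The skin chemokine gene Ccl27a went from 126, 130, 80.9 and 119 CPM to 61.3, 83.5, 57.8 and 71.0 CPM (adjusted p = 0.00631 with the block and 0.0838 without), lower in each mouse although the groups overlapped. Its near copy Ccl27b shares reads with Gm13306. Inhba, the βA subunit of activin, had a log2 fold change of -0.69 (adjusted p = 0.0466 with the block and 0.0765 without).

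The bulge stem cell list, fixed like the other lists with earlier results of these data known, gave 0 calls by edgeR among 25 tested genes, against 1 higher and 1 lower by DESeq2 and 1 lower with the mouse as a block. At an unadjusted p under 0.05, 7 were lower and 1 was higher, against 6.37% and 6.78% of all genes tested. The median was -0.14, below 0 in 4 of 4 mice and under each scaling (-0.12 to -0.14), against -0.01 over all genes. The higher gene, Aqp3, had the smallest p of the list. In CD34+ cells it went from 144 ± 9.74 to 185 ± 9.42 CPM (SD, n = 4) without overlap of the groups. Untreated CD34- cells held more of it, at 222 ± 25.2 CPM (SD, n = 4), so that Aqp3 did not mark the stem cell fraction here. For its change in CD34+ cells the adjusted p was 0.0576 by edgeR, 0.0641 with the mouse as a block and 6.82e-05 by DESeq2. Krt15, a bulge keratin, was at 425, 380, 320 and 447 CPM in untreated and 238, 310, 267 and 386 CPM in treated cells. It was lower in each mouse, but the groups overlapped and it did not pass the test (adjusted p = 0.251). Runx1, a transcription factor of hair follicle stem cells, went from 19.2 ± 0.687 to 15.1 ± 1.29 CPM (SD, n = 4; adjusted p = 0.0819, and 0.0406 with the block). The stem cell regulators Sox9, Lhx2, Tcf7l1 and Nfatc1 had log2 fold changes of -0.17, 0.05, -0.21 and -0.05, with adjusted p of 0.693, 0.976, 0.870 and 0.880. Because these are pooled cells, fewer cells with a transcript and less transcript per cell cannot be told apart.

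No member of the S phase list or of the G2 and mitosis list was called by edgeR. DESeq2 called 5 S phase genes and 3 genes of G2 and mitosis, all higher, against 6.33% of the genes it gave an adjusted p. Dtymk and Pold2, called by edgeR as given above, are in neither list. Of 43 tested S phase genes 13 were higher and 0 lower at an unadjusted p under 0.05, with a median of 0.12, and of 54 genes of G2 and mitosis 11 were higher and 0 lower, with a median of 0.16. These counts stand against the 6.78% of all genes that were higher at such a p and a median of -0.01 over all genes. All 4 mice had a median above 0 for both lists. Fen1, the flap endonuclease, went from 30.3 ± 1.95 to 36.7 ± 0.554 CPM (SD, n = 4; adjusted p = 0.0634), and Aurka, the mitotic kinase, from 29.1 ± 4.53 to 36.7 ± 2.85 CPM (SD, n = 4; adjusted p = 0.207). Mcm4, a subunit of the replicative helicase, had an adjusted p of 0.160 that became 0.0219 with the block. The proliferation markers Mki67 and Top2a had log2 fold changes of 0.05 and 0.10 and did not pass the test.

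Of 40 epidermal differentiation genes edgeR called 0, DESeq2 called 2 higher and the block called 0. At an unadjusted p under 0.05, 12 were higher and 0 lower, against 6.78% and 6.37% of all genes tested. The median was 0.31 against -0.01 over all genes. Ivl, the cornified envelope precursor involucrin, went from 8.59, 10.3, 9.43 and 8.99 CPM to 13.3, 13.4, 16.9 and 13.2 CPM without overlap of the groups (adjusted p = 0.0908). The differentiation keratin Krt10 and the barrier gene Flg had log2 fold changes of 0.03 and -0.04. Sprr2a1 was counted at 16.4 and 14.3 CPM in the treated libraries of mice 3 and 4 and between 5222 and 6383 CPM in the other 6, whereas Sprr2a2, whose last 500 transcript bases are identical, was between 5223 and 6996 CPM in all 8, and the value of Sprr2a1 was not read.

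The lists for cholesterol and fatty acid synthesis (0 of 31 called, 7 higher and 0 lower at an unadjusted p under 0.05, median 0.20) and for glycolysis and hypoxia (0 of 33 called, 6 higher and 0 lower, median 0.05) gave no call by edgeR. For glycolysis and hypoxia DESeq2 called 3 higher and the mouse as a block 2, and for cholesterol and fatty acid synthesis the block called 1 higher and DESeq2 0. The interferon-stimulated genes (0 of 24 called, 1 higher at an unadjusted p under 0.05, median -0.08), the p53 targets (0 of 23 called, 0 at an unadjusted p under 0.05, median -0.02) and the 26 YAP and TEAD targets (0 called, 4 lower, median -0.10) gave no call by edgeR, while DESeq2 called 1 interferon-stimulated gene higher and the block 1 YAP and TEAD target lower. Of the 83 tested ribosomal protein genes edgeR called 0 and DESeq2 1 lower, with 12 lower and 0 higher at an unadjusted p under 0.05 and a median of -0.04. The hemidesmosome and basal laminin genes, which anchor basal cells, gave 0 calls by edgeR and by DESeq2 among 10, with 2 lower at an unadjusted p under 0.05 and a median of -0.04. Over all genes tested, 6.78% were higher and 6.37% lower at an unadjusted p under 0.05, and the median was -0.01. DESeq2 called 6.33% of the genes it gave an adjusted p. Of all 39 lists, 8 held a gene called by edgeR and 30 had tested members without such a call. The plot of list members places these beside each other.

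**Figure D4:**
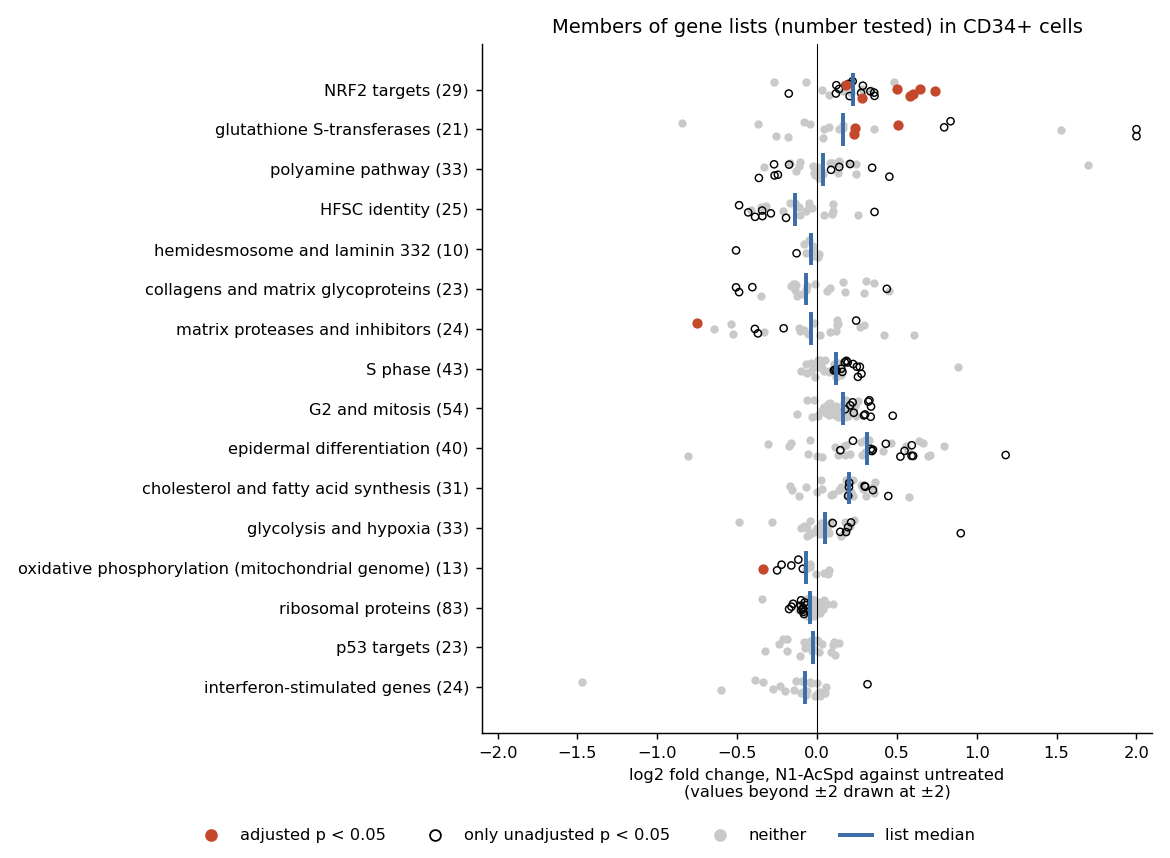
Log2 fold change with N1-AcSpd in CD34+ cells (x axis) of each tested member of 16 gene lists, with the number tested in brackets. Red points passed an adjusted p of 0.05, open points only an unadjusted p of 0.05, and blue bars mark list medians, from 0.31 for epidermal differentiation to -0.14 for the stem cell list.

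The CD34- progenitors of the same cultures, which have their own untreated libraries, gave 117 calls among the same genes (0.614%). Of the 62 genes called in CD34+ cells, 19 were called there too, which is 30.7% of the CD34+ calls and 16.2% of the CD34- calls. In the CD34- libraries 61 of the 62 had a change in the same direction, and 54 had it with an unadjusted p under 0.05. Of all genes tested, 13.6% had such a p in either direction. The fractions came from the same mice and cultures, and the fit gave each gene 1 spread for both tests. The 54 are thus not an independent check. The exception in direction was the processed pseudogene Gm5967, at -0.00 on the log2 scale. By list, the median log2 fold change in CD34- cells was 0.175 for NRF2 targets, -0.158 for the stem cell list and 0.417 for epidermal differentiation. For S phase and for G2 and mitosis it was 0.028 and -0.046. Nqo1 (0.73), Cbr3 (0.63), Esd (0.38) and Ptges (0.48) were called in CD34- cells, with adjusted p of 0.00836, 0.00931, 0.00545 and 0.0384. Prl2c5 rose there from 70.4 ± 8.71 to 97.7 ± 7.57 CPM (SD, n = 4; adjusted p = 0.0261). Igfbp3 went from 11.2 ± 2.08 to 17.7 ± 3.16 CPM (SD, n = 4) and did not pass the test (adjusted p = 0.0665), nor did Tm4sf1, from 8.05 ± 0.423 to 7.003 ± 0.568 CPM (SD, n = 4; adjusted p = 0.399).

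Whether the effect differed between the fractions was tested by the interaction of treatment and fraction. edgeR called 0 genes for it, with 799 at an unadjusted p under 0.05 (4.19% of those tested), and 0 with the mouse as a block, while DESeq2 called 71. The smallest adjusted p was 0.411. Thus no gene named here was shown by edgeR to respond in CD34+ cells alone. Of the 62, 14 had an unadjusted interaction p under 0.05. The 62 were chosen for their change in CD34+ cells, which is part of the interaction. Small interaction p are thus favoured among them, and neither this count nor the values below show a difference between fractions. The unadjusted interaction p of edgeR is given in brackets, and none passed adjustment. In Gpx2 the log2 fold change was 0.59 in CD34+ and 0.16 in CD34- cells (0.00173), in Gstm1 0.51 and 0.12 (0.00192), in Dtymk 0.25 and 0.08 (0.00261), in Pip -0.61 and -0.15 (0.00379), in Prl2c5 0.85 and 0.47 (0.00603) and in Tm4sf1 -0.63 and -0.20 (0.00817). In 57 of the 62 the absolute change was larger in CD34+ cells, and since the genes were chosen for their change there this excess is no result. The smallest interaction p over all genes belonged to 1700029J07Rik, with log2 fold changes of -0.36 in CD34+ and -2.38 in CD34- cells, and, in the other direction of the difference, to Cyp2b10, with 0.48 in CD34- against -0.18 in CD34+ cells.

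**Figure D5:**
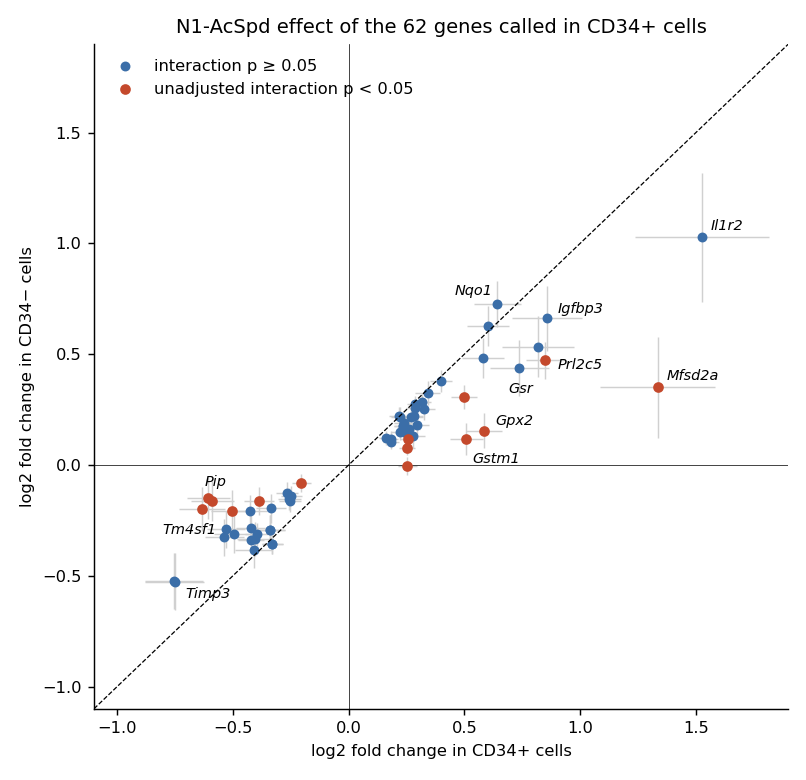
Log2 fold change with N1-AcSpd in CD34+ cells (x axis) against CD34- cells (y axis) for the 62 genes called in CD34+ cells, with SE bars and a dashed line of equal change. Red points have an unadjusted interaction p under 0.05, none of which passed adjustment over all genes, and 61 of 62 points have the same sign on both axes.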

How the data were processed

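The series holds 16 libraries of UMI-based 3′ RNA sequencing from 4 mice, with 1 library of each CD34 fraction from untreated and N1-AcSpd-treated organoids of each mouse. The authors deposited 1 table of UMI counts per gene, not normalised, with 32989 identifiers, in which 156050 empty cells were read as 0. The submitters' processing notes name kallisto 0.45.0, FastQC 0.11.7, bedtools, DESeq2 and mm10, and the strand setting of the counting was not given in the sources used here. Pseudoalignment can divide or move reads between near-identical transcripts, so single members of such families are uncertain. Symbols and positions came from GENCODE vM21 (GRCm38), in which 62 identifiers were absent, and promoters from RefSeq (GRCm38.p6).

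Counts were tested with edgeR 4.0.16 (limma 3.58.1, R 4.3.3), by the quasi-likelihood test with TMM scaling, 1 mean per group over all 16 libraries and a mean count of at least 5, which left 19049 genes. A gene was called at a Benjamini-Hochberg adjusted p under 0.05. DESeq2 1.42.0, the mouse as a block, other scalings and filters, the 8 CD34+ libraries alone, thinned counts, and leaving out each library or mouse were alternatives. Counting near-identical genes once was added after seeing the data. The code was tested on simulated data.

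The labels name the mouse of each library, so equal replicate numbers mark the same animal. Within CD34+ cells the deviations of same-mouse libraries from their group means correlated at -0.01, -0.02, 0.03 and 0.02 for mice 1 to 4. No 2 libraries of a group were copies (chi-square of at least 24.6 per degree of freedom).

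The genes named were the 3 markers Prl2c5, Igfbp3 and Tm4sf1, the 12 largest called increases and decreases at a mean count of at least 50 with overlapping near-identical genes taken as 1 and unnamed gene models left out, every called member of a gene list or else its member of smallest p in each direction, up to 20 genes called by all 3 models, the 5 largest changes in each direction called with the block alone, the smallest interaction p in each direction, and 4 sort and keratin checks. Further list members are given as textbook members of their pathway, chosen with their values known, as are the called genes outside this rule. The members and lists were chosen with earlier results of these data known. Genes overlapping on the genome with counts correlated above 0.99 and totals within 10% were taken as near-identical.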

Additional observations from a re-analysis of the deposited data

Results flagged for a closer look

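Of 221 groups of 4 libraries examined for the named genes, 11 had 1 library whose gap to the nearest of the others exceeded Dixon's 95% critical value for the share of the group's range, and chance alone flags about 1 in 20 groups. Of the untreated libraries, that of mouse 3 stood high for Acss2 at 13.33 CPM (others 11.66 to 11.79), for Scd1 at 7.369 CPM (others 5.084 to 5.373) and for Slc25a4 at 14.14 CPM (others 12.28 to 12.58). The untreated library of mouse 2 stood high for Hells at 40.19 CPM (others 35.54 to 36.17) and for Col1a2 at 0.1097 CPM (others 0.05136 to 0.05687), and low for Pgam1 at 266.9 CPM (others 275.8 to 277.1). The untreated library of mouse 1 was high for Alg8 at 11.2 CPM (others 10.19 to 10.32), and that of mouse 4 low for Cebpb at 164.3 CPM (others 172.8 to 173.9). The treated library of mouse 3 was high for Ivl at 16.87 CPM (others 13.15 to 13.37) and for Ptges at 12.82 CPM (others 11.5 to 11.66), and low for Slc25a4 at 8.893 CPM (others 9.861 to 10.06). Of these genes Alg8, Ptges and Slc25a4 were called, and in each the flagged library lay on its own group's side of the other group. The cause was not tested.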

How the results depend on the processing

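Against 62 genes called, 8 CD34+ libraries alone gave 3, DESeq2 431, no low-count filter 35, the replicate block 152, the block in 8 libraries alone 0, counts thinned to the smallest CD34+ library 30, an adjusted p under 0.1 186 and a further absolute log2 fold change over 0.5 19. It was 75 with DESeq2's size factors (70.7% higher against 58.1%), 65 with filterByExpr, 49 with library totals and 58 with near-identical genes counted once, the last added after seeing the data. Leaving out a library or a mouse gave 3 to 85 calls. For the interaction of treatment and fraction DESeq2 called 71, the other models 0, and the runs that left out a library or a mouse 0 to 11. The fewer calls in the smaller fits come with fewer residual degrees of freedom by construction, and the causes of the other shifts were not tested. The median log2 fold change over all genes was -0.01 with TMM, -0.01 with library totals and 0.00 with DESeq2's factors. With thinned counts the uncalled genes Col1a2 and Pmel turned to -0.014 and -0.054. Leaving out a library or a mouse turned the sign of uncalled genes only, with ranges of -0.007 to 0.187 for Cd34, -0.134 to 0.014 for Hells, -0.029 to 0.061 for Itgb4, -0.029 to 0.038 for Krt14, -0.025 to 0.102 for Krt5, -0.004 to 0.240 for Nuak2 and -0.037 to 0.085 for Pmel. Over 3175 runs of named genes, 2720 kept direction and side of the threshold, 373 fell out of it, 62 entered it and 20 turned direction. Depth limits genes such as Il1r2 and Mfsd2a, with 26.1 and 17.5 UMIs per library.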
